A study of Mus musculus with 4 samples.

Results

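The genes described here are the 7 MHC class II presentation genes H2-Aa, H2-Ab1, H2-Eb1, H2-DMa, H2-DMb1, Cd74 and Ciita, taken by gene symbol from the 22913 genes listed for each library. They were chosen with earlier results of these data known, and all 7 were listed with a value above 0 in every library. RNA sequencing measured gene expression in dermal white adipose tissue (dWAT), the fat layer below the hair follicles (HFs), of C57BL/6 mice, in 4 libraries with 1 library in each of 4 groups. The groups were OTD (old mice, telogen, the resting phase of the hair cycle), YTD (young mice, telogen), OAD (old mice, anagen, the growth phase) and YAD (young mice, anagen). Old mice were aged 18 months and young mice 2 months, each library pooled tissue of several mice, and in both anagen groups the new hair cycle was started by depilation, which the telogen groups did not receive, so that phase and depilation cannot be told apart. The age label of YTD reads 18 months and that of OAD reads 2 months, against their titles, and the groups here follow the titles.

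MHC class II molecules present peptides of proteins taken up from outside the cell to CD4+ T cells. An α chain and a β chain pair in the endoplasmic reticulum with the invariant chain Cd74, which fills the peptide groove until it is cut down by proteases such as cathepsin S in the endosome, and the DM molecule, built from H2-DMa and H2-DMb1, then exchanges the last invariant chain fragment for a peptide. H2-Aa and H2-Ab1 encode the α and β chains of I-A, and H2-Eb1 encodes the β chain of I-E, whose α chain is not made in C57BL/6 mice. Ciita is the coactivator on which transcription of these genes depends, and it is itself induced by interferon gamma. In skin and fat, class II molecules are best known on dendritic cells, Langerhans cells, macrophages and B cells.

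Of the members, 5 lay together in the MHC of chromosome 17, between positions 34135182 and 34316199 of GRCm38, a stretch of 181 kb. As listed with the data, H2-DMa (ENSMUSG00000037649) spanned chr17:34135182-34139101 and H2-DMb1 (ENSMUSG00000079547) chr17:34153072-34160230. Next along the chromosome came H2-Ab1 (ENSMUSG00000073421) at chr17:34263209-34269418, H2-Aa (ENSMUSG00000036594) at chr17:34282744-34287827 on the minus strand, and H2-Eb1 (ENSMUSG00000060586) at chr17:34305877-34316199. Ciita (ENSMUSG00000022504) was listed at chr16:10488178-10527564, and Cd74 lies on another chromosome. Each of the 7 is a protein-coding gene in GENCODE, and the length listed for each, from 771 bp for H2-Aa to 3237 bp for Ciita, equalled the coding exons of a GENCODE transcript of that gene. The exons of H2-DMa share 360 bp with those of Brd2 on the opposite strand, and those of Ciita share 329 bp with Dexi on the opposite strand. H2-DMb1 has a near copy beside it, since its coding sequence is 95.9% identical to that of H2-DMb2 and 47.9% of its stretches of 50 bases occur there unchanged, so that reads of the DM β chain could be shared between both genes.

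Class II promoters are known for a conserved module in which the X box, bound by the RFX complex, and the Y box, bound by NF-Y, stand at a fixed distance and together hold Ciita in place. RefSeq promoter windows on GRCm38.p6, from 250 bases before to 50 bases after the start site, were held for 4 of the 7 members. An X core written CTNGNAAC followed after 20 to 40 bases by a Y core written ATTGG was found in 3 of them, H2-Aa, H2-Eb1 and H2-DMb1, and also in that of H2-Ob, a chain of the related DO molecule. It was not found in the windows of H2-DMa, nor in those of H2-DMb2, H2-Oa and H2-Eb2, the other class II region chains searched. The promoters of H2-Aa (chr17:34287861-34287913, minus strand), H2-Eb1 (chr17:34305767-34305818, plus strand) and H2-Ob (chr17:34238809-34238858, plus strand) are shown because they let the shared spacing be seen, with both cores in capitals.
H2-Aa: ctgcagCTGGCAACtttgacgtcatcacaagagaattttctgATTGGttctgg
H2-Eb1: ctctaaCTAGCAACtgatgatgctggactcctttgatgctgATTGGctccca
H2-Ob: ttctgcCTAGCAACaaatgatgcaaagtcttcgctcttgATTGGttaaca
Between both cores lay 28 bases in H2-Aa, 27 in H2-Eb1, 28 in H2-DMb1 and 25 in H2-Ob, and the X core began 84, 94, 97 and 90 bases before the RefSeq start site, respectively. For H2-DMb1 that start site lies inside the span listed above, so its match, which with its flanks begins at position 34153088, is downstream of the start of the listed gene. Read on both strands, the X core alone was present in 13.2% and the Y core alone in 37.4% of 32851 promoter windows, and the pair at this spacing in 78 of them, or 0.237%. The letters do not overlap, they were chosen after the member promoters were seen, and a match is a description of the sequence only.

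The abundance of each gene was taken as FPKM, a fragment count scaled by listed length and library depth. Being per length, it can be compared between genes as far as the counted fragments match the listed length. That match could not be checked, because the counting tool is not given. Depth, estimated roughly from the smallest values, was 20000000 fragments in OTD and 18700000 in YTD, and 23400000 in OAD and 18100000 in YAD, and the intervals below are 95% intervals that cover counting error only. With 1 library per group there is no replicate spread, no test between groups and no p-value. Adipocyte genes were detected in each library, among them Adipoq, at 427 FPKM in OTD and 280 in YTD, against 103 in OAD and 76.5 in YAD. The libraries also differed in makeup. Mitochondrially encoded genes took between 44.7% and 52.7% of all FPKM in telogen and between 14.4% and 18.3% in anagen, 10 skeletal muscle genes took between 5.40% and 8.52% in telogen and between 1.70% and 1.97% in anagen, and keratin and keratin-associated genes took between 0.0635% and 0.113% in telogen and between 13.9% and 15.1% in anagen. The part of these differences in the results below was not tested.

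The α and β chains of I-A and the β chain of I-E were abundant in telogen dWAT and several times lower in anagen dWAT. H2-Aa was at 205 FPKM in OTD, 114 in YTD, and in anagen 16.3 in OAD and 18.1 in YAD. H2-Ab1 was at 148 FPKM in OTD and 97.8 in YTD, against 17.8 in OAD and 17.1 in YAD. For H2-Eb1 the values were 135 FPKM in OTD, 101 in YTD, and in anagen 11.6 in OAD and 13.0 in YAD. All 3 chains were highest in OTD and next in YTD, and both anagen libraries lay several-fold below them. H2-Eb1 was thus measured, in telogen at a level close to that of H2-Ab1, although its I-E partner chain is not made in this strain.

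Cd74 (ENSMUSG00000024610), the invariant chain, listed at chr18:60803848-60812646, was the most abundant member in each library, at 244 FPKM in OTD and 190 in YTD, against 24.9 in OAD and 30.9 in YAD. By abundance it ranked number 343 of all listed genes in OTD and number 499 in YTD, against 3159 in OAD and 2493 in YAD. The DM chains that edit the bound peptide were measured at lower levels. H2-DMa was at 13.5 FPKM in OTD, 8.46 in YTD, and in anagen 1.82 in OAD and 2.03 in YAD. H2-DMb1 was at 12.3 FPKM in OTD and 7.46 in YTD, against 2.23 in OAD and 2.64 in YAD, with the limit set by H2-DMb2 given above. Both followed the order of the I-A and I-E chains, with telogen above anagen and OTD above YTD.

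Ciita, the regulator, was measured at the lowest level of the 7. Its value was 0.746 FPKM in OTD (0.545 to 0.981), 0.389 in YTD (0.253 to 0.588), and 0.161 in OAD (0.0819 to 0.277) and 0.259 in YAD (0.143 to 0.422). These values correspond to roughly 48, 24, 12 and 15 fragments, all above the 3 fragments taken as the floor of detection. The counting intervals of OTD and YTD overlap, as do those of YTD, OAD and YAD with each other, while the interval of OTD lies above those of both anagen libraries. Summed over the 7 members, the class II genes reached 758 FPKM in OTD, 519 in YTD, and in anagen 74.8 in OAD and 84.0 in YAD.

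**Figure D1:**
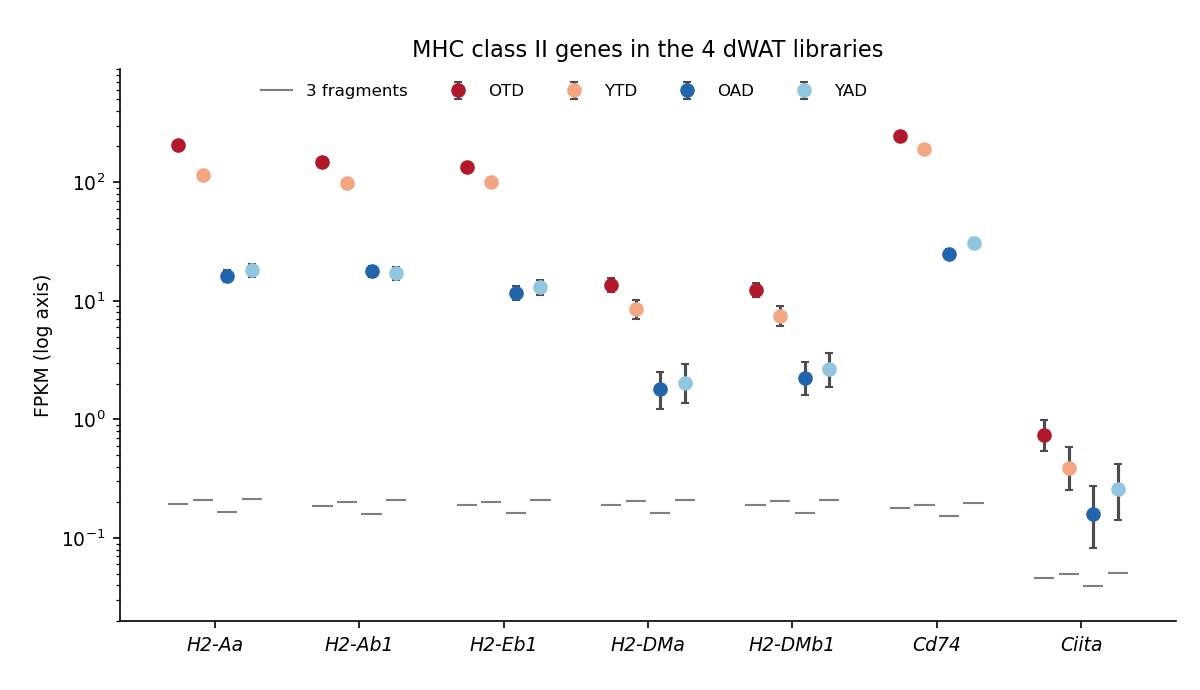
FPKM (log axis) of the 7 class II genes in the OTD, YTD, OAD and YAD libraries, with points for the 1 library per group, vertical bars for the 95% counting interval and short grey lines for the value of 3 fragments. The 6 genes other than Ciita lie higher in both telogen libraries than in both anagen libraries, and Ciita lies below 1 FPKM throughout.

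The comparison of OTD with YTD asked how class II genes differ with age in resting skin. All 7 members were higher in OTD, as were 45.8% of 17230 genes with a value above 0 in either library. The median change of the members in log2(FPKM + 1) was 0.59. Over those 17230 genes it was -0.03, and -0.06 over the 12982 genes that reached 1 FPKM in either library. H2-Aa had the largest change, 0.84, with an FPKM ratio of 1.79 (1.69 to 1.90), and 96.3% of the genes that reached 1 FPKM had a smaller change. H2-DMb1 differed by 0.66 and H2-DMa by 0.62, with ratios of 1.65 (1.30 to 2.11) and 1.60 (1.27 to 2.01). H2-Ab1 differed by 0.59 with a ratio of 1.51 (1.41 to 1.61). H2-Eb1 followed at 0.42 with a ratio of 1.34 (1.25 to 1.43), and Cd74 at 0.36 with a ratio of 1.28 (1.22 to 1.34). For Ciita the change was 0.33, held down by the pseudocount of 1 at its low level, and the ratio was 1.92 (1.15 to 3.28).

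The counting interval of the ratio excluded 1 for all 7 genes in telogen, but counting error says nothing about the spread between groups of mice. None of the 7 reached a change of 1, a doubling, which 1.67% of the genes above 0 did in this direction. At a change of 0.5, 4 of 7 were counted (H2-Aa, H2-DMb1, H2-DMa and H2-Ab1), where 8.91% of genes above 0 and 11% of genes at 1 FPKM were. Leaving mitochondrially encoded genes out of the scaling took H2-Aa past 1, at 1.06, and the other 6 stayed below it. That scaling also raised the median of all genes at 1 FPKM, by 0.19. The share of all genes past 1 was not taken under it. In bulk tissue, a difference in the number of cells that carry class II genes and a difference in the RNA per cell cannot be told apart, here and below.

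The comparison of OAD with YAD asked the same of growing skin, and it gave small differences of the other sign. Cd74 was lower in OAD by 0.30 on the log2 scale, with an FPKM ratio of 0.809 (0.711 to 0.920), and it was the 1 member whose counting interval excluded 1. For H2-DMb1 the change was -0.17, for H2-Eb1 -0.16, for H2-Aa -0.14, for Ciita -0.12 and for H2-DMa -0.10. H2-Ab1 was 0.06 higher in OAD with an interval of the ratio from 0.880 to 1.23, and its sign turned, to between -0.17 and -0.09, when the libraries were rescaled to TPM or without mitochondrial, muscle or hair genes. The median of the 7 was -0.14, against 0 over all genes above 0. On the deposited values no member was lower by 1 or by 0.5, and of all genes above 0 the shares that were are 0.454% and 2.85%. The change of Cd74 passed 0.5 when the libraries were rescaled, at -0.52 under TPM and -0.50 without hair shaft and keratin genes. Both scalings moved the median of all genes at 1 FPKM as well, by -0.21 and -0.19.

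The age change was positive in telogen and negative in anagen for 6 of the 7 members, all but H2-Ab1, as it was for 20.6% of the genes above 0 in any library. For 5 of these 6, all but Cd74, the counting interval of the anagen ratio included 1. The difference between both age changes ran from 0.45 for Ciita to 0.97 for H2-Aa, and it could not be tested with 1 library per group.

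The comparison of YAD with YTD set depilation-induced anagen against telogen in young mice. In YAD 6 of the 7 members were lower by more than 1 on the log2 scale, where 16.7% of the genes above 0 and 21.4% of those at 1 FPKM were, and the median change of the 7 was -2.45 against 0.02 over all genes above 0. H2-Eb1 was 7.71-fold lower (6.62 to 9.02), H2-Aa 6.33-fold lower (5.54 to 7.25), Cd74 6.16-fold lower (5.59 to 6.81) and H2-Ab1 5.74-fold lower (5.01 to 6.60). The DM chains differed less, with H2-DMa 4.17-fold lower (2.77 to 6.49) and H2-DMb1 2.83-fold lower (1.94 to 4.20). For Ciita the value was 1.5-fold lower with an interval from 0.754 to 3.07, and its log2 change of -0.14 turned positive, to between 0.07 and 0.12, when the libraries were rescaled to TPM or without hair shaft and keratin genes. Of genes at 1 FPKM, 1.81% had a change below that of H2-Eb1 and 16.7% a change below that of H2-DMb1.

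The comparison of OAD with OTD did so in old mice, where the differences were larger. Again 6 of 7 members were lower by more than 1, where 15.6% of genes above 0 and 19.9% of those at 1 FPKM were, with a median of -2.99 against 0.01. H2-Aa was 12.6-fold lower (11.1 to 14.2), H2-Eb1 11.6-fold lower (10.1 to 13.4), Cd74 9.78-fold lower (8.90 to 10.8) and H2-Ab1 8.32-fold lower (7.41 to 9.37). H2-DMa was 7.43-fold lower (5.13 to 11.1) and H2-DMb1 5.53-fold lower (3.93 to 7.94). Ciita was 4.63-fold lower (2.42 to 9.58), although its log2(FPKM + 1) differed by only -0.59. Only 0.188% of genes at 1 FPKM had a change below that of H2-Aa, against 4.15% for H2-DMb1. Each library served in 2 of the 4 comparisons, so the values side by side are not independent.

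**Figure D2:**
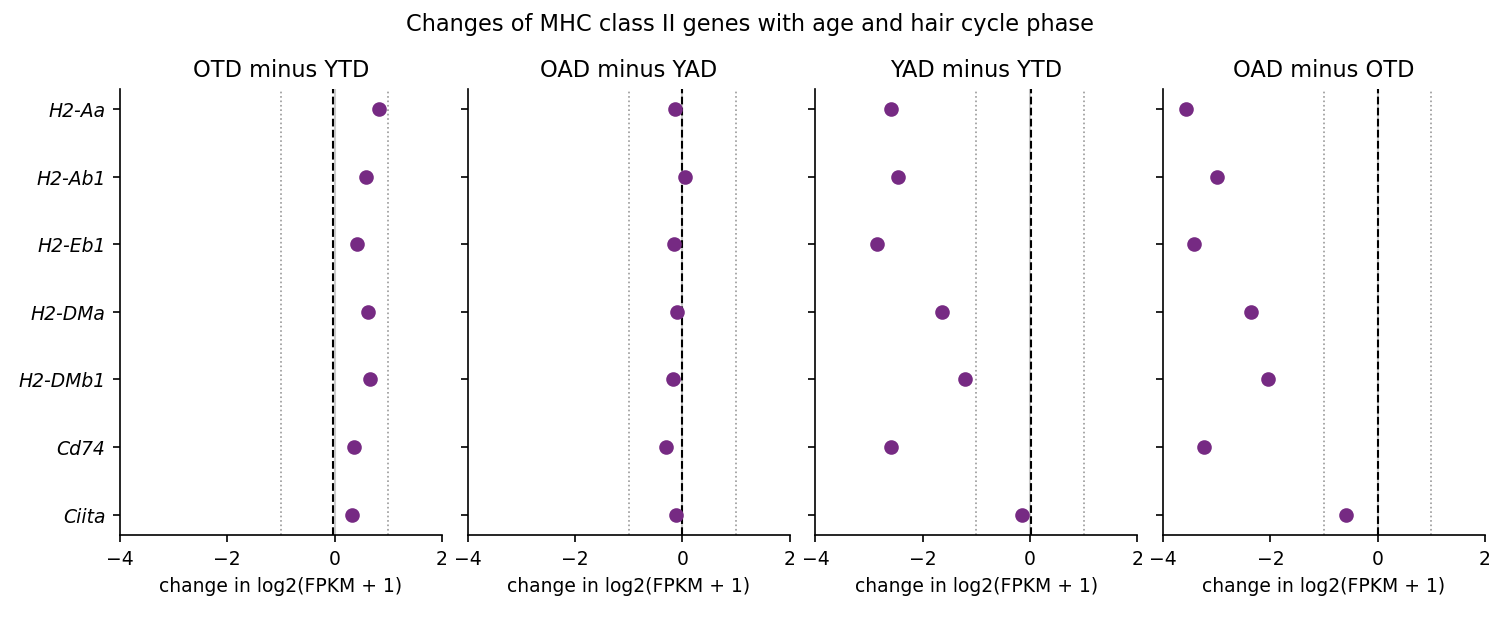
Change in log2(FPKM + 1) of each class II gene (points, 1 library per group) in the 4 comparisons, with the dashed line at the median of all genes above 0, the grey line at 0 and dotted lines at changes of -1 and 1. The 7 points lie to the right of 0 in OTD minus YTD and close to 0 in OAD minus YAD, where that of H2-Ab1 changes sign with the scaling, and all but Ciita lie left of -1 in both comparisons of anagen with telogen.

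Scaling between libraries changes the size of the phase differences. Rescaled to TPM over all listed genes, the median of all genes at 1 FPKM moved by 0.73 for YAD against YTD and by 0.53 for OAD against OTD, and without hair shaft and keratin genes it moved by 0.91 and 0.74. The median of the 7 members moved with it, from -2.45 to -1.64 under TPM and -1.43 without hair genes for YAD against YTD, and from -2.99 to -2.39 and -2.16 for OAD against OTD. Under TPM and under the scaling without hair genes, 4 of 7 members were lower by 1 in YAD, with H2-DMa and H2-DMb1 falling short of it. The share of all genes lower by 1 was taken on the deposited values only, so these counts have no share to be read against.

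Ratios between members within 1 library do not depend on scaling, and they differed between libraries for some members. Cd74 made up 32.2% of the summed FPKM of the 7 in OTD and 36.6% in YTD, against 33.3% in OAD and 36.8% in YAD. The DM chains together made up 3.41% in OTD, 3.07% in YTD, and in anagen 5.41% in OAD and 5.56% in YAD. Set against the summed FPKM of H2-Aa, H2-Ab1 and H2-Eb1, the DM chains stood at 0.0530 in OTD (0.0479 to 0.0586) and 0.0509 in YTD (0.0445 to 0.0581), and at 0.0887 in OAD (0.0690 to 0.113) and 0.0969 in YAD (0.0741 to 0.125). The telogen and anagen intervals of this ratio do not overlap, but they cover counting error only, each DM chain rests on 29 to 41 fragments in anagen, and the difference between phases could not be tested with 1 library per group. The intervals also take no account of reads shared with H2-DMb2 or Brd2.

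For the invariant chain the ratio lay closer together across phases. Cd74 over the sum of H2-Aa, H2-Ab1 and H2-Eb1 was 0.50 in OTD (0.482 to 0.520) and 0.608 in YTD (0.580 to 0.637), and 0.546 in OAD (0.488 to 0.611) and 0.640 in YAD (0.568 to 0.721). It was lower in the old library of each phase, with intervals that do not overlap in telogen and do overlap in anagen. The I-A chains were also not in a fixed ratio, with H2-Aa over H2-Ab1 at 1.39 in OTD (1.32 to 1.46), 1.17 in YTD (1.09 to 1.26), and 0.920 in OAD (0.784 to 1.08) and 1.06 in YAD (0.886 to 1.27). H2-Eb1 over H2-Ab1 was 0.912 in OTD and 1.03 in YTD, against 0.653 in OAD and 0.765 in YAD, lower in both anagen libraries.

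**Figure D3:**
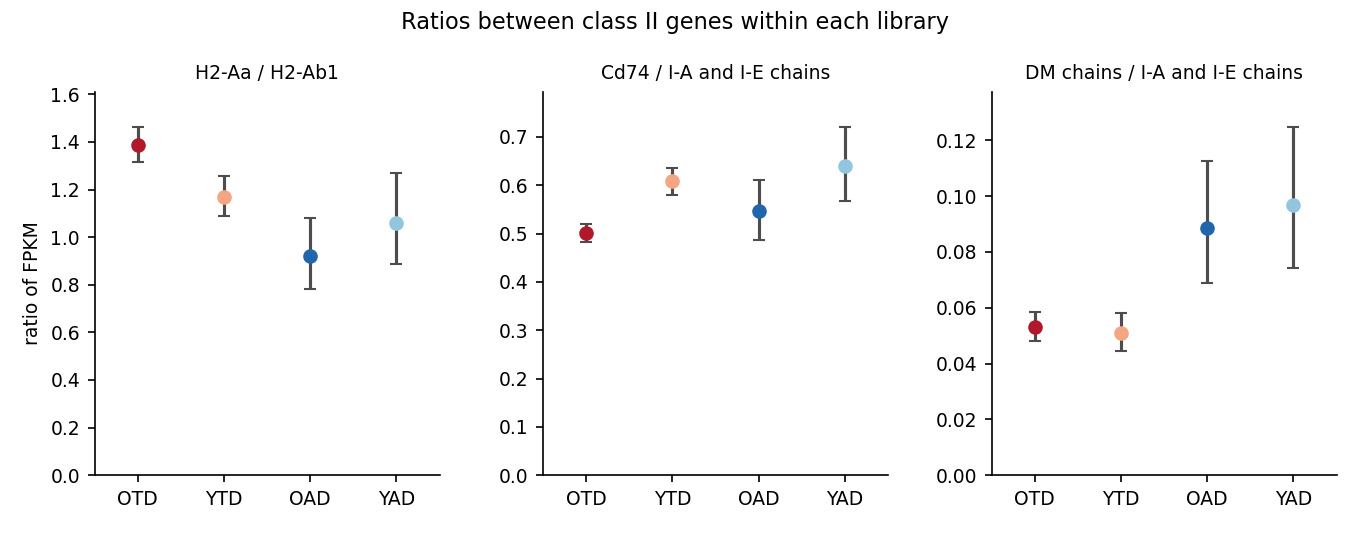
Ratios of FPKM between class II genes within each of the 4 libraries, with I-A and I-E chains standing for the sum of H2-Aa, H2-Ab1 and H2-Eb1, points for the 1 library per group and bars for the 95% counting interval. The ratio of DM chains to I-A and I-E chains lies near 0.05 in telogen and near 0.09 in anagen, and Cd74 over the same chains lies lower in the old library of each phase.

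Other chains of the class II region were at low levels in telogen and mostly at or under the floor of detection in anagen. H2-DMb2, the second DM β chain, was at 1.39 FPKM in OTD, 1.49 in YTD, and in anagen 0.0405 in OAD and 0.336 in YAD. H2-Oa and H2-Ob form DO, an inhibitor of DM known from B cells and dendritic cells. H2-Oa was at 0.82 FPKM in OTD and 0.508 in YTD and listed at 0 in both anagen libraries, and H2-Ob was at 0.345, 0.258, 0 and 0.0813. In OAD all 4 of these chains, H2-Eb2 included, were at or under 3 fragments, and in YAD 3 of 4 were. H2-Eb2 stayed at or under that floor in every library.

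Among 8 genes of class II processing and turnover, 7 were lower in YAD than in YTD and 6 in OAD than in OTD. Under other scalings up to 5 and 4 of the 8 were higher instead. Ctss, March1 and Lgmn were among those lower in both comparisons on the deposited values. Ctss, cathepsin S, which cuts the invariant chain in antigen-presenting cells, was at 116 FPKM in OTD and 40.4 in YTD, against 5.32 in OAD and 8.27 in YAD. It was 2.86-fold higher in OTD than in YTD, 4.89-fold lower in YAD than in YTD and 21.7-fold lower in OAD than in OTD, the last a larger ratio than that of Cd74. March1, a ubiquitin ligase that takes class II molecules off the surface, was at 1.64 FPKM in OTD, 0.969 in YTD, and in anagen 0.174 in OAD and 0.171 in YAD, the anagen values resting on 7 and 5 fragments. It was 5.66-fold lower in YAD than in YTD and 9.42-fold lower in OAD than in OTD. Ctsl, cathepsin L, which does the same work in other cell types, did not share this pattern, at 169 FPKM in OTD, 122 in YTD, and in anagen 191 in OAD and 117 in YAD. Ifi30, the lysosomal thiol reductase that unfolds antigens, was at 30.9 FPKM in OTD and 20.2 in YTD, against 33.1 in OAD and 32.7 in YAD. Lgmn, another lysosomal protease, was at 84.0 FPKM in OTD, 75.6 in YTD, and in anagen 34.9 in OAD and 31.5 in YAD.

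Over this list, 1 of 8 was higher by 1 in OTD than in YTD (Ctss) and 1 was lower by 1 in OAD than in YAD (Cd83, at 1 fragment in OAD), where 1.67% and 0.454% of all genes above 0 were. Of the 8, 2 were lower by 1 in YAD than in YTD and 4 in OAD than in OTD, where 16.7% and 15.6% of genes above 0 and 21.4% and 19.9% of those at 1 FPKM were, so that the first of these counts is near the share of all genes. Its median changes were 0.44, 0.01, -0.48 and -0.79 in these comparisons. The second changed sign to as low as -0.15 and the third to as high as 0.32 under other scalings, and the fourth ran from -1.0 to 0.00.

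The factors that bind the class II promoter did not follow the genes they serve. Of Rfx5, Rfxap, Rfxank, Nfya, Nfyb, Nfyc and Creb1, none was lower by 1 in either comparison of anagen with telogen. In the young and old comparisons 16.7% and 15.6% of genes above 0 were. With only 7 factors, a count of none is not far from that share. Nfya was higher by 1.12 in YAD than in YTD, and the share of all genes higher by 1 there was not taken. The median change of the 7 factors was 0.43 for YAD against YTD and 0.47 for OAD against OTD, positive under each scaling tried, with 5 of 7 or more higher. With age the medians were -0.20 in telogen, which turned to 0.01 without mitochondrially encoded genes, and -0.12 in anagen. Nfyc, the most abundant, was at 19.5 FPKM in OTD and 22.5 in YTD, against 27.3 in OAD and 27.4 in YAD. Rfx5, the DNA-binding subunit of RFX, was at 3.31 FPKM in OTD, 3.41 in YTD, and in anagen 5.13 in OAD and 6.33 in YAD.

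The route by which interferon gamma acts on Ciita was lower in anagen at most of the genes analysed. Ifng itself was at or under 3 fragments in all 4 libraries and listed at 0 in 3 of them. The 5 other genes analysed, Ifngr1, Ifngr2, Jak1, Jak2 and Irf1, were lower by 1 or more in YAD than in YTD, and 4 of them, all but Ifngr2, in OAD than in OTD, where 16.7% and 15.6% of all genes above 0 were. The medians were -1.62 over the 5 genes with a value above 0 in YAD or YTD, which leaves out Ifng, and -1.36 over all 6 in the old comparison, and other scalings moved them to as little as -0.62 and -0.58. Ifngr1, the ligand-binding receptor chain, was at 55.3 FPKM in OTD and 40.4 in YTD, against 13.1 in OAD and 14.9 in YAD. Irf1, a transcription factor induced by interferon gamma, was at 23.0 FPKM in OTD, 17.5 in YTD, and in anagen 5.12 in OAD and 4.49 in YAD. With age none of the 6 changed by 1 in either phase, and the medians were -0.12 in telogen, over the 5 genes other than Ifng, and 0.02 in anagen, over all 6, which other scalings turned to as high as 0.09 and as low as -0.14.

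The co-stimulatory genes Cd80, Cd86 and Cd40, which antigen-presenting cells need beside class II, were at low levels throughout. Cd86 was at 1.58 FPKM in OTD and 1.68 in YTD, against 0.105 in OAD and 0.259 in YAD, so that its telogen values hardly differed between ages. Cd40 was at 1.39 FPKM in OTD, 1.15 in YTD, and in anagen 0.259 in OAD and 0.102 in YAD, and Cd80 was at 0.530, 0.317, 0.547 and 0.309. Cd86 in OAD and Cd40 in YAD were under 3 fragments, and Cd80 rested on roughly 5 fragments in YTD and in YAD. Over the 3 genes the median changes were 0.15 for OTD against YTD, 0.19 for OAD against YAD, -0.96 for YAD against YTD and -0.92 for OAD against OTD. Other scalings moved the medians between phases to as little as -0.69 in young and -0.60 in old mice.

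MHC class I, which presents peptides made inside the cell and is carried by nearly all cell types, was set beside class II, and several of its genes lie in the same locus. B2m, its light chain, was at 1513 FPKM in OTD and 803 in YTD, against 263 in OAD and 199 in YAD. H2-D1 was at 492, 301, 197 and 165 FPKM and H2-K1 at 409, 280, 196 and 152 FPKM in the same order. In telogen OTD had the higher value for 8 of 9 class I genes, and their median of 0.53 was close to that of the class II genes. In anagen OAD had the higher value for 9 of 9, their median being 0.35, where 6 of 7 class II genes were lower. Other scalings left the class I median in anagen between 0.14 and 0.37.

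Between phases the class I genes differed less than the class II genes. Their median was -0.96 for YAD against YTD, which ran up to 0.02 under other scalings, and -1.14 for OAD against OTD, which ran from -1.44 to -0.31. Psmb8 and Psmb9, subunits of the immunoproteasome, differed most beside B2m, with Psmb8 at 49.1 FPKM in OTD, 33.8 in YTD, and in anagen 8.17 in OAD and 6.19 in YAD. Summed over members, class II stood to class I as 0.295 in OTD (0.289 to 0.301), 0.347 in YTD (0.338 to 0.356), and 0.105 in OAD (0.0994 to 0.111) and 0.15 in YAD (0.141 to 0.159). This ratio was 2.31-fold lower in YAD than in YTD and 2.81-fold lower in OAD than in OTD.

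**Figure D4:**
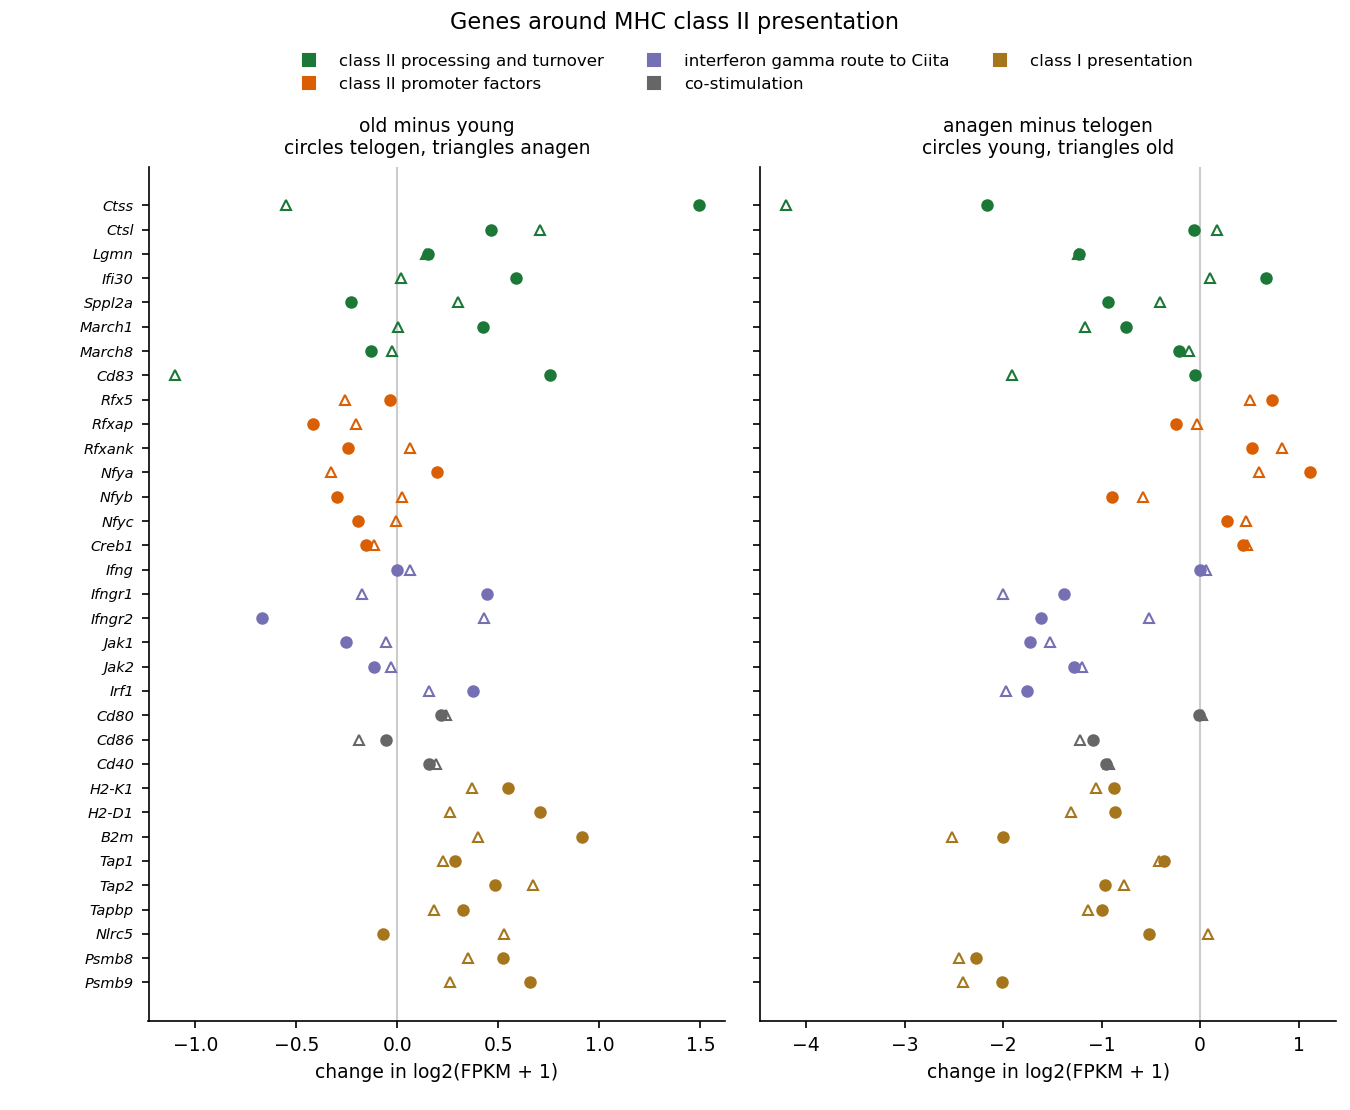
Change in log2(FPKM + 1) of genes around class II presentation (1 library per group), old minus young in the left panel with circles for telogen and triangles for anagen, and anagen minus telogen in the right panel with circles for young and triangles for old mice. In the right panel Ctss, the interferon gamma route, Psmb8, Psmb9 and B2m lie left of -1 in most cases, while 5 of the 7 promoter factors lie right of 0, and in both panels points near 0 change sign with the scaling between libraries.

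Markers of the cells that carry class II molecules differed between the same libraries, and their part in the class II values was not tested. The 6 pan-leukocyte genes summed to 144 FPKM in OTD and 81.3 in YTD, against 10.2 in OAD and 13.5 in YAD. All 6 were higher in OTD than in YTD, as were 45.8% of genes above 0, and the median of the 6 was 0.65. In the young and old comparisons of anagen with telogen 5 and 6 of 6 were lower by 1, where 16.7% and 15.6% of genes above 0 were. The medians were -1.83 and -2.61, and other scalings moved them to as little as -0.99 and -1.94. Cd52 was the most abundant of them, at 72.7 FPKM in OTD, 34.5 in YTD, and in anagen 2.16 in OAD and 3.56 in YAD. The summed class II genes stood to this list as 5.25 in OTD (5.02 to 5.49), 6.39 in YTD (6.00 to 6.79), and 7.33 in OAD (6.40 to 8.42) and 6.22 in YAD (5.40 to 7.17). The leukocyte sum was 6.02-fold lower in YAD than in YTD and 14.1-fold lower in OAD than in OTD, and the class II sum 6.19-fold and 10.1-fold lower. Set against Ptprc (CD45) alone, a gene singled out after its values were seen, the ratios were 176, 196, 174 and 232, with overlapping intervals.

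The 12 macrophage genes summed to 829 FPKM in OTD and 511 in YTD, against 107 in OAD and 138 in YAD. In OTD 10 of 12 were higher than in YTD, and none was higher in OAD than in YAD, with medians of 0.30 and -0.31, which kept their signs under each scaling, as those of the class II genes did. Lyz2, lysozyme, led them at 472 FPKM in OTD, 237 in YTD, and in anagen 39.5 in OAD and 47.6 in YAD. The complement genes C1qa and C1qb followed, with C1qb at 103, 82.0, 14.7 and 21.7 FPKM. Between phases 9 and 10 of 12 macrophage genes were lower by 1 in young and old mice, where 16.7% and 15.6% of genes above 0 were. Their medians were -1.43 and -2.05, and other scalings moved them to as little as -0.47 and -1.41. Class II over macrophage genes was 0.914 in OTD (0.892 to 0.938) and 1.02 in YTD (0.985 to 1.05), and 0.699 in OAD (0.654 to 0.748) and 0.606 in YAD (0.565 to 0.650).

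The 11 dendritic cell genes were at lower levels, and their sum differed less between phases. They summed to 48.3 FPKM in OTD and 39.2 in YTD, against 15.7 in OAD and 15.3 in YAD, and Clec10a, a lectin also carried by macrophages, made up the largest share of each sum, at 23.8, 21.3, 9.78 and 9.78 FPKM. Clec10a was 2.17-fold lower in YAD than in YTD, where Zbtb46 was 3.79-fold, Itgax 3.74-fold and Irf8 3.33-fold lower. Irf8 was at 7.01 FPKM in OTD, 4.06 in YTD, and in anagen 1.38 in OAD and 1.22 in YAD. Itgax (CD11c) was at 3.59 FPKM in OTD against 0.532 in YTD, 0.175 in OAD and 0.142 in YAD. Of this list it was the 1 gene past a change of 1 with age, and 1.67% of genes above 0 rose that far in OTD. The list was divided by age in telogen, where OTD had the larger value for 6 of the 11 genes and YTD for 5. Its median change there was 0.16, and other scalings moved it to as high as 0.37. Irf4, at 2.71 FPKM in OTD and 3.88 in YTD, and Zbtb46, at 3.04 and 3.39, were among those with the larger value in YTD. Flt3 was below 0.4 FPKM in each library, and Ccr7 was listed at 0 in OAD. Class II over dendritic cell genes was 15.7 in OTD and 13.2 in YTD and 4.76 in OAD and 5.48 in YAD, a 2.41-fold difference between phases in young and a 3.30-fold difference in old mice.

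B cell genes and the Langerhans cell marker Cd207 were at low levels. Of 5 B cell genes, 2 in OTD and 4 in each other library were at or under 3 fragments, and Ms4a1 (CD20) was listed at 0 in 3 libraries. Their sum was 1.87 FPKM in OTD and 0.470 in YTD, against 0.350 in OAD and 0.356 in YAD, and so 3.99-fold higher in OTD than in YTD, a higher age ratio in telogen than that of each other marker list used. It rested on few fragments, with Cd79b at roughly 19 in OTD and 4 in YTD and Cd22 at 21 and 2. Cd207, langerin, the defining marker of Langerhans cells, was listed at 0 in YTD, OAD and YAD and at 0.0805 FPKM in OTD, under 3 fragments. Epcam, the other Langerhans cell gene used, is also an epithelial gene and was at 2.58 FPKM in OTD and 2.29 in YTD, against 53.3 in OAD and 41.7 in YAD. The 6 T cell genes, which include Cd4, the class II coreceptor, summed to 2.39 FPKM in OTD, 1.81 in YTD, and in anagen 0.317 in OAD and 0.231 in YAD, with all 6 at or under 3 fragments in both anagen libraries.

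Cells that carry little class II differed between phases as well. The 8 adipocyte genes summed to 7319 FPKM in OTD and 5878 in YTD, against 2543 in OAD and 1752 in YAD, and the 6 genes of the vessel lining to 279, 169, 64.0 and 49.4 FPKM. The 10 skeletal muscle genes summed to 67504 FPKM in OTD, 106120 in YTD, and in anagen 16027 in OAD and 11765 in YAD, and 8 hair shaft keratins to 31.8, 95, 11142 and 11558 FPKM. Of the 6 epidermal keratinocyte genes, which include Krt5 at 19.2, 35.0, 618 and 469 FPKM, all were higher in anagen. The adipocyte genes, in contrast to the class II genes, had a positive median change with age in both phases, 0.32 in telogen and 0.36 in anagen. Class II genes over adipocyte genes were at 0.104 in OTD and 0.0883 in YTD, against 0.0294 in OAD and 0.0479 in YAD, so the class II genes were also lower in anagen relative to adipocyte genes, by 1.84-fold in young and 3.52-fold in old mice.

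**Figure D5:**
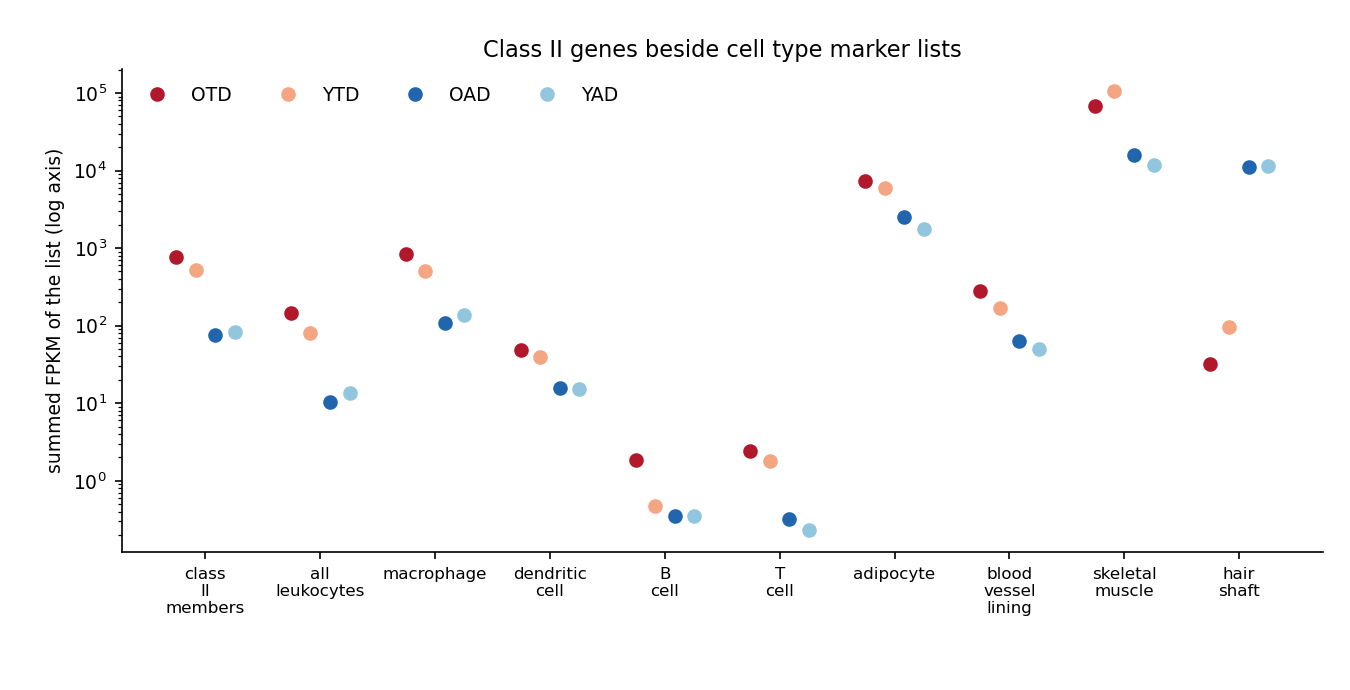
Summed FPKM (log axis) of the class II genes and of marker lists for 9 cell types in the 4 libraries, with 1 point per library and no error bars. The class II, leukocyte, macrophage and B cell sums share the order OTD, YTD, YAD, OAD from high to low, that of the B cell genes on few fragments. The hair shaft sum has the opposite difference between phases.

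To find the genes whose levels most resembled the class II genes over the 4 libraries, each gene's log2(FPKM + 1) was centred on its own mean and compared with the median centred profile of the 7 members, over 9308 genes with a mean of at least 5 FPKM. The measure was the root mean square difference in log2 units, a description over only 4 libraries, which also differ in depth and tissue makeup. H2-Ab1 lay closest at 0.041, and Cd74, H2-Aa and H2-Eb1 lay at 0.172, 0.231 and 0.246, numbers 31, 55 and 64 in the order. The members form the profile themselves, so their nearness is partly built in, and H2-Ab1 sets its YTD and OAD values. H2-DMa and H2-DMb1 were farther away, at 0.335 and 0.523, and Ciita did not reach 5 FPKM.

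Of genes that are no members, Clec4a2, a C-type lectin of myeloid cells, was nearest at 0.054, with 12.3 FPKM in OTD, 7.89 in YTD, and in anagen 0.801 in OAD and 0.867 in YAD. Cd53, a leukocyte tetraspanin, came next at 0.074, with 16.3 FPKM in OTD and 9.16 in YTD, against 0.991 in OAD and 1.08 in YAD. C1qtnf9, which encodes a secreted protein made by fat, followed at 0.090, with 37.8, 26.2, 4.82 and 4.64 FPKM. The others among the 10 nearest were Ly6a at 0.096, Cav1 at 0.107, Rtp4 and Chpt1 at 0.109, Pmp22 at 0.118, Pcolce2 at 0.121, and 1 feature outside the Ensembl annotation at 0.117. Cav1, which encodes the coat protein of caveolae, was at 425 FPKM in OTD, 333 in YTD, and in anagen 64.0 in OAD and 65.0 in YAD.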

How the data were processed

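RNA of microdissected dWAT was sequenced on an Illumina HiSeq platform. The authors deposited FPKM per gene for each of the 4 libraries on GRCm38, and the submitters' processing notes name bcl2fastq and TopHat2. The counting tool, its use of strand and the scaling are not given in the sources used here. Of the listed lengths, 97.0% are multiples of 3 and are treated as coding lengths. Of 22913 listed genes, 22166 have Ensembl identifiers, of which 21750 were matched to a symbol. The 4 libraries were grouped by their titles as OTD, YTD, OAD and YAD, with 1 library in each.

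Changes were differences of log2(FPKM + 1), which understate the change of low genes, and a change counted from 1 upward in size. Background shares were taken over genes above 0, or at 1 FPKM or more, in either library. Depth was estimated from the low values of FPKM times length of features of 2000 to 4000 bp, as the value of 1 fragment. From it came fragment numbers, exact Poisson intervals of levels and exact binomial intervals of ratios (95%), which cover counting error only and are rough. The floor was 3 fragments. The estimate and the calls were tried on simulated data with counting error only, where large changes planted in 200 genes of higher level were all recovered. Small changes, changes of low genes and spread between mice were not simulated. Python 3.11.15, pandas 2.3.3, SciPy 1.17.1 and Biopython were used. GENCODE M21 gave exons and coding sequences, and RefSeq the promoters.

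The members and gene lists (other class II region chains, processing and turnover, promoter factors, interferon gamma route, co-stimulation, class I, and markers of dendritic, Langerhans, macrophage, B, T, leukocyte, adipocyte, muscle, keratinocyte, hair shaft and vessel cells) were chosen with earlier results of these data known. Genes were named by a rule: all members, each class II region chain, up to 4 genes of the other pathway lists and up to 3 of the marker lists with the highest mean FPKM, defining markers at 0, and the 10 genes most like the members. Further genes named (Cd83, Psmb8, Psmb9, Irf1, March1, Rfx5, Nfya, Itgax, Irf8, Zbtb46, Cd79b, Cd22, Flt3, Ccr7, Adipoq, Krt5 and Ptprc among them) were singled out after their values were seen. H2-Ea was not analysed here, and 1 gene of the interferon gamma list and 1 of the B cell list are not reported here. Alternatives were pseudocounts of 0.1 and 0.01, a filter at 1 FPKM, 5 other scalings and thresholds of 0.5 and 1.5, and, chosen after seeing the data, medians without H2-DMb1 or without Ciita.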

Additional observations from a re-analysis of the deposited data

Results flagged for a closer look

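For 6 of the 7 class II genes the age change went one way in telogen and the other way in anagen. The difference (old minus young in telogen, minus old minus young in anagen, in log2 units) was 0.97 for H2-Aa, 0.83 for H2-DMb1, 0.72 for H2-DMa, 0.65 for Cd74, 0.57 for H2-Eb1 and 0.45 for Ciita. With 1 library in each group this difference was not tested. In anagen the counting interval of the ratio of old to young included 1 for each of these genes except Cd74, so that on the deposited values the negative sign of the other 5 in anagen is not larger than counting error. Under TPM the anagen changes were larger, at -0.36 for H2-Aa and -0.38 for H2-Eb1. TPM also moved the median of all genes at 1 FPKM, by -0.21 for OAD against YAD. Relative to that move the median of the 7 members was -0.15.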

How the results depend on the processing

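No direction of a median and no count reversed under the alternatives. For OTD against YTD the median of 0.59 became 0.81 without mitochondrially encoded genes and 0.74 without those and muscle genes, and the count past the threshold of 1 went from 0 to 1 in the former and to 4 at a threshold of 0.5. For YAD against YTD the median of -2.45 became -1.64 under TPM, -2.25 without mitochondrially encoded genes and -1.43 without hair shaft and keratin genes. For OAD against OTD the median of -2.99 became -2.39 under TPM, -3.29 without mitochondrially encoded and muscle genes and -2.16 without hair shaft and keratin genes. Over all alternatives the medians ran from 0.50 to 0.81, from -0.36 to -0.12 (OAD against YAD), from -2.52 to -1.43 and from -3.29 to -2.16. Single members kept their sign in 55 of 55, 51 of 55, 53 of 55 and 55 of 55 alternative values in the comparisons in this order, with H2-Ab1 in anagen and Ciita in young mice as the exceptions. The change of Ciita in OAD against OTD went from -0.59 to -1.70 with a pseudocount of 0.1. No paired analysis was possible because each group has 1 library, and for the same reason no library could be left out. Depth limits Ciita, at 12 to 48 fragments, and the DM chains in anagen, at 29 to 41 fragments.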
